A study of Mus musculus with 4 samples.

Results

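The genes of the aquaporin-4 complex of the astrocyte endfoot were examined in cultured mouse cortical astrocytes. They are the water channel gene Aqp4, the dystroglycan complex genes Dag1, Dtna, Dmd and Utrn with the ligand gene Agrn, and the MLC1 complex genes Mlc1, Hepacam and Clcn2. These 9 genes were chosen by name, not by a measured value, and all 9 were found among the 45703 genes of the deposited count table. The series profiles calcium signalling components in 4 astrocyte cultures, which form 1 group without a contrast. Glia came from the frontal cortex of wild-type mice of the outbred strain CD-1, dissociated on postnatal day 4, and grew in a serum medium to which B27 and EGF were added. Before RNA was taken, every culture spent 1 h in serum-free Ham's medium, so that no culture is an untreated control. The labels give no sorting step, so that the libraries hold the RNA of whatever cells grew in the dishes, away from the vessel wall that an endfoot covers in tissue. Although the series describes 4 biological replicates, no label states if each culture had its own animals or preparation. The p-values given here are of ratios between genes within each library. They therefore reflect how consistently a ratio kept its direction over these 4 samples, not the size of the spread between them. Part of that spread may be technical.

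In the brain, an astrocyte endfoot is the flattened process that covers a blood vessel, and AQP4 is concentrated in its membrane on the vessel side. There AQP4 is held by a chain of proteins: a syntrophin binds it, dystrophin and dystrobrevin carry the syntrophin, and dystroglycan spans the membrane to bind agrin and laminin in the basement membrane. MLC1 and GlialCAM (the product of Hepacam) form a second membrane complex of endfeet and astrocyte contacts, in which GlialCAM brings MLC1 and the chloride channel ClC-2 (Clcn2) to cell junctions. Loss of MLC1 or GlialCAM causes a leukodystrophy with white matter oedema in humans, and loss of dystrophin causes muscular dystrophy.

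The libraries held 37300485 to 42369109 counts, of which 95.6% to 95.9% fell in protein-coding genes, and the 9 genes together took 0.356% to 0.406% of the counts. Culture 4 stood apart from the other 3. Between any pair of cultures 1 to 3, 22 to 45 of 14725 expressed genes (0.149% to 0.306%) differed by 1.5-fold or more, against 996 to 1083 (6.76% to 7.35%) between culture 4 and any of them. Xist, the RNA of the inactive X chromosome, stood at 732.1 CPM (counts per 1000000 counts of the library) in culture 4 and at 0.146 to 0.150 in the others, while the Y-linked Ddx3y stood at 0.0944 CPM in culture 4 and at 67.5 to 76.4 in the others. All 10 astrocyte markers were expressed, led in length-corrected level by Fabp7 and Slc1a3, with a summed level of 10934 CPM in culture 4 and 11168 to 11346 in the others. Of the 10, 3 were lower in culture 4 by 1.5-fold or more: Gfap (779.7 CPM against 1498 to 1555), S100b (6.11 against 12.7 to 14.5) and Gjb6 (1.09 against 2.84 to 3.02). Fibroblast and meningeal markers (4 of 6 expressed, led by Col1a2 and Col1a1) summed to 511.5 CPM in culture 4 against 1334 to 1420. Most of that sum came from Col1a2 (410.3 CPM in culture 4 against 719.3 to 749.4) and Col1a1 (72.4 against 570.1 to 622.65). Pdgfra, listed also for oligodendrocyte precursors, went the other way and was 1.62-fold higher in culture 4. Microglial markers (5 of 6, led in RPKM by C1qa and Csf1r) summed to 56.0 CPM in culture 4 against 84.1 to 93.5. Mural markers (3 of 6, led by Notch3 and Pdgfrb) summed to 109.7 against 150.2 to 153.6. Endothelial markers (2 of 6 expressed, led by Kdr and Flt1) summed to 7.62 CPM in culture 4 and 13.5 to 14.5 in the others, and the defining marker Cldn5 had 1 count over all libraries.

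The deposited counts pool all transcripts of a gene, and Dmd and Agrn are known for separate promoters that give proteins of different form. Dystrophin is made in full length from outer starts and in short forms, Dp71 among them, from internal starts. Agrin is made as a secreted and as a membrane-bound form from separate starts. For each gene the 250 bases before an outer and an inner annotated start are printed below, taken from RefSeq on the build GRCm38.p6, on the strand of the gene and 5′ to 3′. The deposited coordinates of Dmd begin farther upstream, at 82814664. The outer Dmd window is therefore not at the outermost start, for which no window is printed. None of these 4 windows overlaps an annotated GENCODE exon. Capitals mark GC boxes (GGGCGG, searched on both strands, overlapping matches included), the motif bound by factors of the Sp1 family.
Dmd, outer start, chrX:82948620-82948869, plus strand: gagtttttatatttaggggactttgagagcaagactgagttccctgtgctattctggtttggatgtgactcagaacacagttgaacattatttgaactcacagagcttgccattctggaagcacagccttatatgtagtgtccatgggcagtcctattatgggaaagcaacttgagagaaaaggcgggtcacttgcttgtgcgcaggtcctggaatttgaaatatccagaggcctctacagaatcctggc
Dmd, inner start, chrX:85048045-85048294, plus strand: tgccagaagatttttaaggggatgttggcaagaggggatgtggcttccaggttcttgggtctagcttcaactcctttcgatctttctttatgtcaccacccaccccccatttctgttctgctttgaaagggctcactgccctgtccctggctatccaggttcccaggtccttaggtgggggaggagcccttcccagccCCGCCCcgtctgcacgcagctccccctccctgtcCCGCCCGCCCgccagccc
Agrn, outer start, chr4:156197489-156197738, minus strand: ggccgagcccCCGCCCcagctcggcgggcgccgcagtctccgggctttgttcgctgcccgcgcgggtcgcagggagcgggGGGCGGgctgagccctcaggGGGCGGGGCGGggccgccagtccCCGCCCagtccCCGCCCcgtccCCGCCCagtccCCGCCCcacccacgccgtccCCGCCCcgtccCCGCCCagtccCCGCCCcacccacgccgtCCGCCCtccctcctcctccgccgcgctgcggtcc
Agrn, inner start, chr4:156186260-156186509, minus strand: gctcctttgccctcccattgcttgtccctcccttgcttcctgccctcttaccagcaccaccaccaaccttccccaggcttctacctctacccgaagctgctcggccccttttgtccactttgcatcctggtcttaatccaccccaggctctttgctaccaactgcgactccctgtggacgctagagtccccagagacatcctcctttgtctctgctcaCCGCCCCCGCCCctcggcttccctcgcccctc

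The Dmd windows differ in base composition. The outer one had 45.2% G and C, 2 CpG dinucleotides, no GC box and 1 TATA box (TATAAA, both strands), while the inner one had 60% G and C, 7 CpG, 3 GC boxes and no TATA box. Of the Agrn windows, the outer had 83.6% G and C, 35 CpG and 12 GC boxes, and the inner 60.8%, 8 CpG and 2 GC boxes. Over all 32851 RefSeq windows of this length the median was 52.4% G and C and 6 CpG, a GC box was present in 32.7% and the TATA box in 12.4%. A site for STAT factors (TTCNNNGAA), present in 7.02% of all windows, matched in none of these 4. RefSeq windows were found for 7 of the 9 genes, the exceptions being Aqp4 and Dtna.

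All 9 genes were expressed, here meaning at least 1 CPM in every library, as were 32.2% of all 45703 genes and 58.1% of the 21843 protein-coding genes. These shares are the background for each count of expressed genes in a list. In counts the 3 most abundant were Aqp4 at 907.0 ± 142.5 CPM (SD, n = 4, as for all values given with ± here), Mlc1 at 870.6 ± 78.0 and Dag1 at 829.8 ± 31.2, which were the 83rd, 86th and 89th genes of the table by mean CPM. At the other end Clcn2 had 35.3 ± 1.54 CPM. Levels of different genes were compared as RPKM, CPM per kilobase of the combined exon length deposited with the counts, which runs from 2860 bases for Mlc1 to 21584 for Utrn. On that scale the order was Mlc1, Aqp4, Dag1, Hepacam, Agrn, Dtna, Dmd, Clcn2 and Utrn, from 304.4 ± 27.3 down to 4.36 ± 0.19 RPKM. Of the 14725 expressed genes, 1.04% were as high as Mlc1 or higher in RPKM and 2.74% as high as Aqp4.

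**Figure D1:**
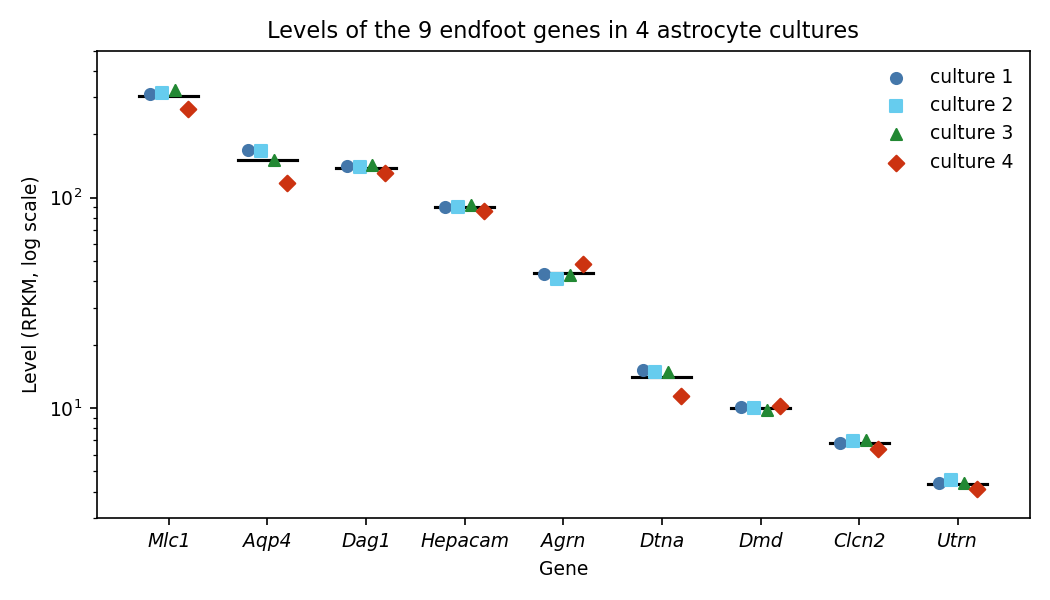
Level of each of the 9 genes in each of the 4 cultures, in RPKM on a log scale, with the mean over the 4 cultures as a horizontal line. Mlc1 is the highest at a mean of 304.4 RPKM and Utrn the lowest at 4.36, and the symbol of culture 4 lies clearly under the other 3 for Mlc1, Aqp4 and Dtna and above them for Agrn.

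Aqp4 encodes the main water channel of the brain (GeneID 11829, GRCm38.p6 chromosome 18, 15389394 to 15410982, minus strand). It stood at 169.0, 166.9, 150.4 and 117.7 RPKM in cultures 1 to 4, a mean of 151.0 ± 23.7. Cultures 1 and 2 were close together, culture 3 was a little lower and culture 4 the lowest, at 72.6% of the mean of the other 3. In CPM, the mean was 973.8 ± 61.1 over cultures 1 to 3 alone. Only 1 of its 4 counts was a whole number, so that a part of its reads was split with other features and its level is uncertain to that extent. The same limit holds for Mlc1 and Dmd, with 2 whole counts of 4 each, and for Dag1 and Hepacam, with 3 each. The 1 gene that overlaps it in the annotation, A830021F12Rik, had 0.0993 CPM.

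Aqp4 led its family by far. Of 12 aquaporin genes 3 were expressed: Aqp4, the intracellular channel gene Aqp11 (3.89 ± 0.47 RPKM) and Aqp9, a channel for water and glycerol (0.68 ± 0.13 RPKM). Aqp4 made up 96.5% ± 0.28 of the summed aquaporin RPKM, and it was 38.6 times Aqp11 (log2 5.27 ± 0.14, and 5.12 to 5.40 in single libraries). The size of that ratio rests on the exon length of Aqp11: it was 201.4 with the longest GENCODE transcript of each gene and 175.6 with no length term. Aqp6, Aqp7, Aqp8 and Aqp12 had at most 1 count over all libraries, a total at or under 3 counts being taken as the floor of detection. Aqp1, a channel of choroid plexus and vascular cells, missed the minimum only in culture 4, at 0.307 CPM against 1.87 to 2.17 in the others. This count of expressed aquaporins was 4 without culture 4.

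The genes whose profile over the 4 libraries was most like that of Aqp4 were sought among the 14724 other expressed genes, by the Euclidean distance between log2 CPM profiles each centred on its own mean. The nearest were Ap3b2 (distance 0.0271), Dera (0.0281), Akr1c13 (0.0341), Tmem47 (0.0348) and Tshr (0.0355). Of these, the membrane protein gene Tmem47 was the most abundant at 392.7 CPM, and its values of 440.4, 427.1, 391.9 and 311.5 CPM in cultures 1 to 4 show the pattern that was matched, with culture 3 slightly and culture 4 clearly lower. Dtna was the nearest of the other 8 genes of the complex, at rank 239 and a distance of 0.142. Mlc1 came at rank 1445 and Agrn, which was highest in culture 4, at rank 11098. With only 4 libraries, 3 of them alike, such neighbours are loosely fixed: leaving out 1 culture at a time kept 0 to 2 of the 5 named genes.

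Dag1 encodes dystroglycan, the receptor that is cut into an outer and a membrane-spanning subunit (GeneID 13138, chromosome 9, 108204861 to 108263977, minus strand). It stood at 141.4, 139.2, 143.2 and 131.3 RPKM, a mean of 138.8 ± 5.22. Its 4 values lay close together, culture 4 being 92.96% of the mean of the others. Dystroglycan binds its ligands through a sugar chain. Of the enzymes that build that chain 17 of 18 were expressed, beside 58.1% of all protein-coding genes. They were led in RPKM by B4gat1 (46.6 ± 3.77), which starts the laminin-binding repeat, and by the mannose-chain enzyme Pomgnt1 (30.9 ± 0.98).

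Agrn encodes agrin, a proteoglycan of basement membranes that binds dystroglycan (GeneID 11603, chromosome 4, 156165290 to 156197533, minus strand). It stood at 43.4, 41.3, 43.0 and 48.6 RPKM, a mean of 44.1 ± 3.17, and 42.5 without culture 4. Agrn was the 1 gene of the 9 that was clearly higher in culture 4, by 1.14-fold. Dag1 was 3.15 times Agrn in RPKM (log2 1.66 ± 0.15) and above it in 4 of 4 libraries, with an exact sign-flip permutation p of 0.13, two-sided. That is the smallest p that 4 libraries allow, so no test between genes here can pass 0.05. Among the receptors of agrin, Lrp4 was expressed at 10.1 ± 0.29 RPKM, while the kinase gene Musk (26 counts over all libraries) and the agrin-cutting protease gene Prss12 (41 counts) were below the minimum.

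Other ligands of dystroglycan and basement membrane partners were broadly expressed, 17 of 19 with Agrn included, beside 58.1% of all protein-coding genes. The collagen IV chain gene Col4a1 (86.2 ± 3.75 RPKM) and the laminin chain gene Lamc1 (72.7 ± 7.86 RPKM) were the highest of them. In culture 4 the list was divided. Lamc1 stood at 643.3 CPM there against 517.4 to 530.1 in the others, and no gene of the list was 1.5-fold higher. Lower by 1.5-fold or more were Lamb1 (36.7 CPM against 58.4 to 60.95), the neurexin genes Nrxn2 (99.1 against 148.4 to 158.0) and Nrxn3 (6.00 against 9.22 to 10.1), and the small proteoglycan gene Bgn (36.9 against 129.4 to 135.9). Their lower levels came in the same library as the lower fibroblast and meningeal sum, 511.5 against 1334 to 1420 CPM. That sum was mostly Col1a2 and Col1a1, and Pdgfra of the same list was higher there. Whether fibroblast or meningeal cells had a part in the lower levels of these 4 genes was not tested.

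Dmd encodes dystrophin (GeneID 13405, chromosome X, 82814664 to 85205050, plus strand), and it was the steadiest of the 9 genes over all 4 cultures. It stood at 191.1, 189.2, 184.7 and 193.8 CPM, a mean of 189.7 ± 3.81, or 10.0 ± 0.20 RPKM. Its CV over the 4 cultures was 2.01%, and culture 4 was 102.9% of the mean of the others. Over cultures 1 to 3 alone its CV was 1.75%, above those of Dtna (1.08%), Hepacam (1.27%) and Dag1 (1.38%). The 5 genes that overlap it had at most 0.181 CPM. Utrn encodes utrophin, its paralogue (GeneID 22288, chromosome 10, 12382187 to 12869888, minus strand), which stood at 94.4, 98.0, 95.2 and 88.5 CPM, or 4.36 ± 0.19 RPKM.

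Dmd was above Utrn in 4 of 4 libraries, by 2.30 times in RPKM (log2 1.20 ± 0.08; exact sign-flip permutation p = 0.13, two-sided). The direction held under every length tried but the size did not. The ratio was 1.68 with the longest GENCODE transcript of each gene, which is 14910 bases for Dmd and starts at 82948903. It was 9.82 with the length of 4438 bases of the longer of the Dmd transcripts that begin at 85048413, near the inner window printed above, against the combined exon length of Utrn, and 5.63 with that Dmd length against the longest transcript of Utrn. On that length Dmd stood at 42.7 RPKM, between Agrn and Dtna. The counts do not show which of the starts the reads came from. Skeletal muscle markers, a further source of dystrophin RNA in tissue, had 0 of 6 genes expressed, with Myog at 0 counts and a summed level of 1.72 CPM in culture 4 and 2.74 to 2.92 in the others.

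Dtna encodes alpha-dystrobrevin, the dystrophin-related partner that carries syntrophins in glia (GeneID 13527, chromosome 18, 23310006 to 23659719, plus strand). It stood at 180.4, 176.6, 178.0 and 136.5 CPM, or 15.1, 14.8, 14.9 and 11.4 RPKM, a mean of 14.0 ± 1.75 RPKM and 14.9 without culture 4. Cultures 1 to 3 were almost equal and culture 4 stood alone below them. Its paralogue Dtnb, known mainly from neurons and other tissues outside muscle, stood at 4.11 ± 0.03 RPKM, with 33.1 CPM in culture 4 and 32.7 to 33.0 in the others. Dtna was 3.40 times Dtnb (log2 1.76 ± 0.20; exact sign-flip permutation p = 0.13, two-sided), and 2.76 times in culture 4 alone. Of the 6 genes of the dystrophin and dystrobrevin families 5 were expressed, Drp2 at 1.91 ± 0.18 RPKM among them, and Dytn had 1 count.

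The adaptors and membrane partners of dystrophin followed. Of 5 syntrophins 4 were expressed, Sntb1 at 2.2 ± 0.25 RPKM among them. Of the 7 sarcoglycan and sarcospan genes 5 were expressed, led by Sgcb (38.3 ± 4.09 RPKM) and Sgce (22.5 ± 1.79 RPKM). Sspn, the gene of sarcospan, stood at 38.6 CPM in culture 4 against 65.5 to 69.9 in the others.

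Mlc1 encodes a membrane protein of astrocyte junctions (GeneID 170790, chromosome 15, 88955884 to 88982693, minus strand) and had the highest RPKM of the 9. It stood at 309.9, 315.8, 327.0 and 264.9 RPKM, a mean of 304.4 ± 27.3, and 317.6 without culture 4. Culture 3 was the highest and culture 4 the lowest, at 83.4% of the mean of the others. Hepacam, which encodes the adhesion protein GlialCAM (GeneID 72927, chromosome 9, 37367356 to 37386572, plus strand), was steadier, at 90.7, 89.9, 92.2 and 86.5 RPKM, a mean of 89.8 ± 2.43. Clcn2 encodes the chloride channel ClC-2 (GeneID 12724, chromosome 16, 20702435 to 20717746, minus strand). It stood at 6.80, 6.95, 7.06 and 6.38 RPKM, a mean of 6.80 ± 0.30. Clcn2 overlaps Fam131a on the opposite strand, which had 58.7 CPM against 35.3 for Clcn2. Whether reads were counted by strand is not stated in the sources used, so that the level of Clcn2 is uncertain.

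The levels of these 3 genes were far apart. Mlc1 was 3.38 times Hepacam (log2 1.76 ± 0.10) and Hepacam 13.2 times Clcn2 (log2 3.72 ± 0.03), each in 4 of 4 libraries with non-overlapping values and an exact sign-flip permutation p of 0.13, two-sided. Without a length term the ratios were 2.89 and 8.51, in the same direction. Among 10 genes tied to MLC1 and GlialCAM 8 were expressed, of which Mlc1 and the sodium pump subunit gene Atp1b1 (156.4 ± 3.23 RPKM) were the highest. Hepacam2 had 41 counts over all libraries and the cation channel gene Trpv4 0.311 CPM. Gpr37l1, a receptor gene of astrocytes, stood at 20.98 CPM in culture 4 and at 113.2, 112.6 and 116.7 in cultures 1 to 3, the widest gap of any expressed gene in the pathway lists. Gprc5b, another receptor gene of the same list, stood at 178.6 CPM in culture 4 against 189.8 to 196.3.

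Clcn2 was not the leading gene of its own family. Of 11 CLC channel, transporter and subunit genes 7 were expressed, led by Ostm1 (32.5 ± 1.46 RPKM), which encodes the partner of the lysosomal transporter ClC-7, and by Clcn3 (18.5 ± 1.26 RPKM), which encodes an endosomal transporter. Clcn3 was 2.72 times Clcn2 (log2 1.44 ± 0.06) in 4 of 4 libraries, with an exact sign-flip permutation p of 0.13, two-sided. It was paired with Clcn2 because it was the highest Clcn gene in these data, so that this p cannot test their order. Among the 4 genes below the minimum were Clcn1, the channel gene of skeletal muscle, and Bsnd, the gene of a channel subunit, which had 0 counts.

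When the 9 genes were ordered by RPKM, 7 of the 8 neighbouring steps went the same way in 4 of 4 libraries with no overlap of the values, each with an exact sign-flip permutation p of 0.13, two-sided. The order came from these same values, so that these counts and p-values describe it and cannot test it. The ratio of a step lay between 1.40 (Dtna to Dmd) and 3.15 (Agrn to Dtna). Aqp4 and Dag1 were the 1 pair with overlapping values and a direction that changed between libraries. Aqp4 was higher in cultures 1 to 3 and Dag1 in culture 4, at a mean ratio of 1.08 (log2 0.11 ± 0.20; exact sign-flip permutation p = 0.375, two-sided). Without culture 4 the ratio was 1.15. Mlc1 to Aqp4 was 2.03 (log2 1.02 ± 0.15) and Hepacam to Agrn 2.04. Both of these steps turn round when no length term is used, as do Dtna to Dmd and Clcn2 to Utrn. The step from Dtna to Dmd also turns round on the Dmd length of the inner start. With the longest GENCODE transcript as the length, all 8 steps went from higher to lower in every library.

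The difference of culture 4 was next described gene by gene, as log2 of its CPM over the mean of cultures 1 to 3, a comparison of 1 library with the rest that has no test. Aqp4 was lower by 1.38-fold (log2 -0.46), Dtna by 1.31-fold (-0.39), and Mlc1 had 83.4% of that mean (-0.26). Utrn, Clcn2 and Dag1 were lower by 1.08-fold to 1.09-fold (-0.11 to -0.12) and Hepacam by 1.05-fold. Dmd was higher by 1.03-fold and Agrn by 1.14-fold (0.19). None of the 9 reached 1.5-fold in either direction, where 2.02% of the expressed genes were higher and 4.54% lower. At a milder limit, 25% higher or 20% lower, 0 of 9 were higher and 2 of 9 lower, Aqp4 and Dtna, against backgrounds of 9.64% and 10.9%. All 9 values lay inside the 5th to 95th percentile of the expressed genes, -0.55 to 0.42, around a median of 0.04. In these bulk libraries fewer cells that express a gene and less of its RNA per cell cannot be told apart, and whether the makeup or the sex-linked difference of culture 4 has a part in its values was not tested.

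**Figure D2:**
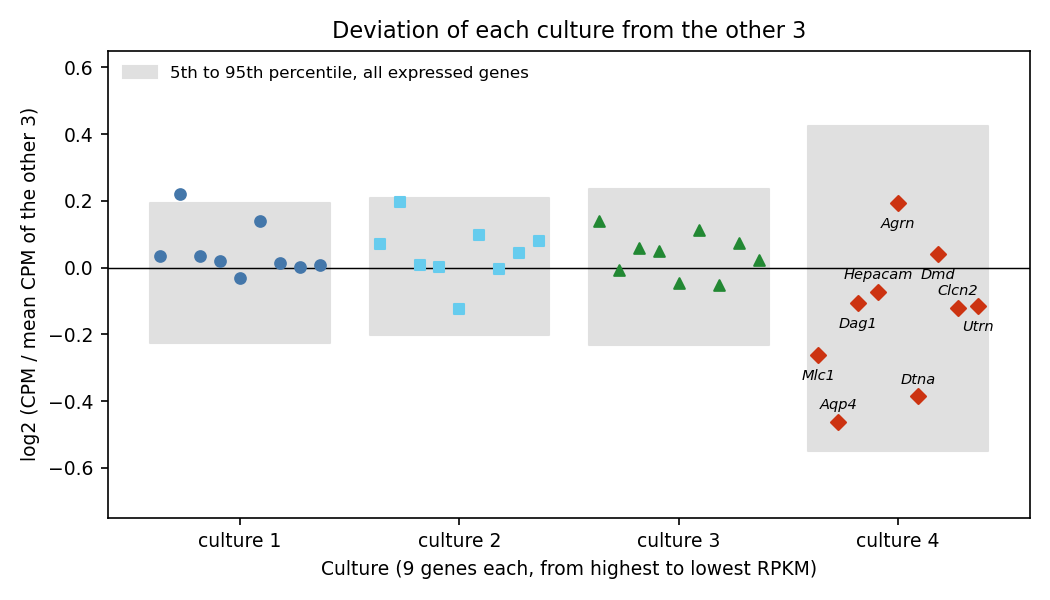
Each point is 1 of the 9 genes in 1 culture, as log2 of its CPM over the mean CPM of the other 3 cultures, ordered within a culture from the highest to the lowest RPKM; grey bars span the 5th to 95th percentile of 14725 expressed genes. In culture 4 the bar is wider than in the others, -0.55 to 0.42, with Aqp4 (-0.46) and Dtna (-0.39) near its lower end and Agrn (0.19) the highest of the 9.

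The spread between cultures was also given as edgeR's tagwise biological coefficient of variation (BCV). It estimates the relative SD between samples beyond counting noise, and each gene's value is drawn toward those of other genes. It is therefore not the observed spread of a gene: Dmd had a CV of 2.01% but a BCV of 0.0596. Over 17105 genes its common value was 0.107 and its median 0.0941. Aqp4 varied most, at 0.137, above 79.2% of those genes, followed by Dtna at 0.116 and Mlc1 at 0.0941. Dmd varied least, at 0.0596, above 2.96% of genes, followed by Hepacam at 0.0647. Without culture 4 the common value fell to 0.0262, and the 9 genes ranged from 0.0232 for Dtna to 0.0345 for Aqp4. Aqp4 stayed the most variable of the 9, above 85.1% of the 17328 genes then kept, with culture 3 lower than cultures 1 and 2 (log2 -0.16). Dtna, above 66.7% of genes over the 4 cultures, was above 24.1% without culture 4.

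Genes with which the endfoot complex works were compared in the same way. Over 14 other endfoot genes 13 were expressed. The highest were the glutamate transporter gene Slc1a3 (618.3 ± 18.7 RPKM), also an astrocyte marker above, and Gfap, the intermediate filament gene of astrocytes (327.6 ± 91.4 RPKM). Kcnj10, the Kir4.1 potassium channel gene that shares the endfoot membrane with AQP4, stood at 238.9 ± 9.17 RPKM and had 1597 CPM in culture 4 against 1681 to 1751 in the others, a smaller gap than that of Aqp4. The 4 genes lower by 1.5-fold or more were Gfap, the sodium pump subunit gene Atp1b2 (858.6 CPM against 1437 to 1491), the protease gene Mmp2 (17.5 against 43.98 to 46.3) and the connexin gene Gjb6, and none was higher by that much.

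Across the 10 pathway lists, 0 expressed genes were 1.5-fold higher in culture 4, beside 2.02% of all expressed genes. The median log2 difference of a list was -0.46 for the 3 aquaporins, -0.39 for the other endfoot genes, -0.38 for the syntrophins and -0.32 for the sarcoglycans and sarcospan. It was nearer to the median of all expressed genes, 0.04, for the glycosylation enzymes (-0.08), the CLC family (-0.10), the dystroglycan ligands (-0.11), the dystrophin and dystrobrevin families (-0.12) and the MLC1 and GlialCAM partners (-0.19). Lrp4, the 1 expressed gene of the agrin receptor list, stood at 96.6 CPM in culture 4 against 93.997 to 100.4. Lower by 1.5-fold or more, as 4.54% of all expressed genes were, were 1 syntrophin (Sntg2, at 1.18 CPM against 2.36 to 2.54), 2 of the sarcoglycan list (Sspn, and Sgcd at 3.42 against 4.55 to 5.76), 4 ligands, 1 MLC1 partner and 4 other endfoot genes. Markers of other cells moved in the same library, here counted at a difference of any size. Lower were all 5 expressed microglial, 3 mural, 4 neuronal, 3 oligodendrocyte and 2 endothelial markers, and 3 of 4 fibroblast and meningeal markers. Of these, 3 microglial, 1 mural, 1 neuronal, 1 endothelial and 3 fibroblast and meningeal markers were lower by 1.5-fold or more. Other lists were divided or went the other way. Of their expressed markers, 6 astrocyte, 2 oligodendrocyte precursor, 2 ependymal and 1 choroid plexus marker were higher. Against these, 4 astrocyte, 2 oligodendrocyte precursor and 1 ependymal marker were lower. With a median of 0.04, more of all expressed genes were higher than lower at any size, and their share was not counted. All 8 proliferation genes were higher, at 1895 CPM in sum against 1418 to 1441, and 1 of them by 1.5-fold or more. They were led in RPKM by Top2a and Plk1. The part of these markers and genes in the list values was not tested.

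**Figure D3:**
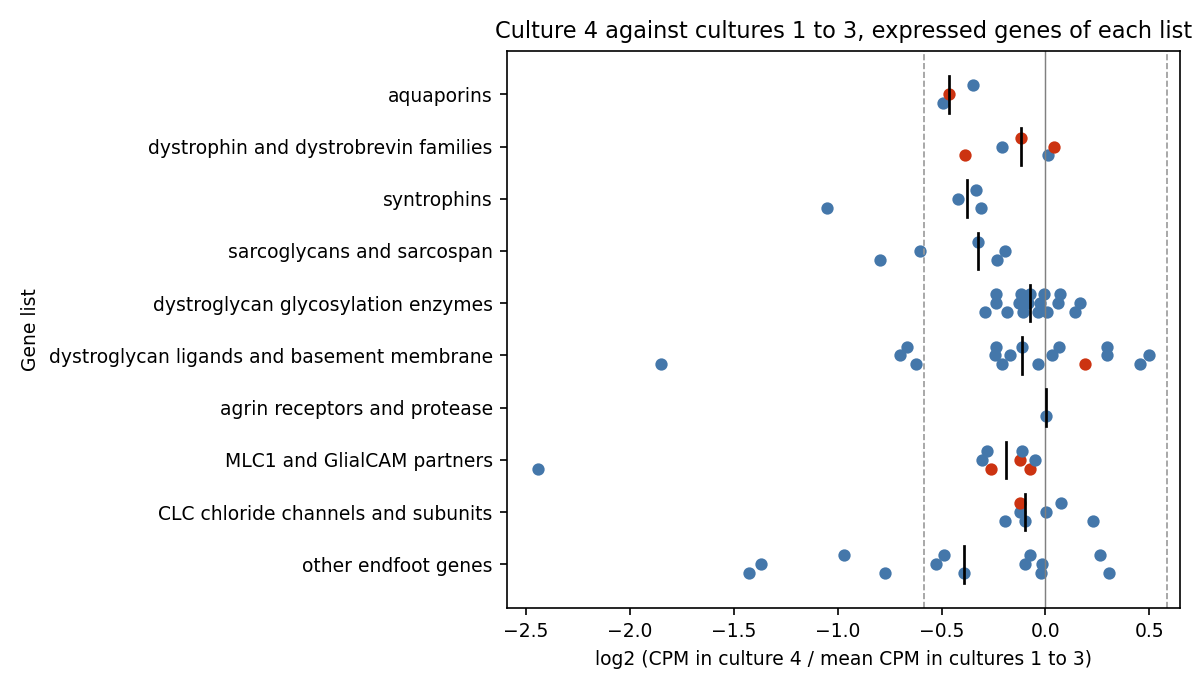
Each point is 1 expressed gene of a pathway list, as log2 of its CPM in culture 4 over the mean of cultures 1 to 3, with the list median as a black bar, the 9 genes of the complex in red and dashed lines at 1.5-fold. No gene lies past the right dashed line, while Gpr37l1 and Bgn lie farthest to the left, and the glycosylation enzymes sit together around their median of -0.08.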

How the data were processed

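Poly-A RNA of 4 astrocyte cultures was sequenced from stranded libraries, per the labels' protocols. The authors deposited 1 table of estimated counts per gene and culture, with exon lengths and coordinates on GRCm38.p6; 31.7% of the values above 0 were not whole. Tools listed in the submitters' processing notes are featureCounts 1.6.4, STAR 2.7.2b, cutadapt 1.17 and bcl2fastq 2.20.0.422; their settings, strand included, are not stated in the sources used. A gene whose reads could be split with another feature, as for Aqp4, Mlc1, Dmd, Dag1 and Hepacam, has an uncertain level.

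From the deposited counts, CPM were computed on the raw library sums and RPKM on the deposited combined exon length, which covers all annotated exons and lowers the RPKM of genes whose cells use short transcripts. At this depth 1 count was 0.0236 to 0.0268 CPM, and totals of 3 counts or fewer over the 4 libraries were the floor; this covers counting error only, as reads amplified by PCR, with no molecular identifier, do not stand for single molecules. A gene at 1 CPM or more in every library was called expressed. Neighbours in level, ordered by these same values, and 10 pairs were compared within libraries by an exact sign-flip permutation test. The pairs were preset, except that Aqp11 and Clcn3 were taken from these data. Aqp11 was the highest aquaporin gene in RPKM after Aqp4, and Clcn3 the highest Clcn gene. BCV came from edgeR 4.0.16 (R 4.3.3; counts rounded, TMM, intercept-only design, default filter), after a test on simulated data. DESeq2 1.42.0 gave alternative size factors only. Longest transcripts came from GENCODE M21 and promoter windows from RefSeq.

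The 9 genes, 10 pathway lists, 11 cell type lists and 2 state lists (sex-linked, proliferation) were chosen with earlier results of these data known. The text names, of each list, the 2 genes highest in RPKM, those past 1.5-fold in culture 4 with a mean of at least 5 CPM, and those at the floor; Aqp1, Aqp9, Drp2, Dtnb, Sntg2, Sgcd, Gjb6, Musk, Hepacam2, Trpv4, Gprc5b, Clcn1, Kcnj10, S100b and Sox10 were named after their values were seen. Alternatives were other minimums, scalings, lengths and folds, and each culture left out. Some genes of the lists are not reported here. The cultures form 1 group, so no test between conditions was made.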

Additional observations from a re-analysis of the deposited data

Results flagged for a closer look

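In 11 of the 33 genes examined, culture 4 lay so far from the other cultures that its gap to the nearest of them, as a part of the whole range, exceeded the 95% critical value of Dixon's test for 4 samples. Chance flags about 1 group in 20, but some of the 33 genes were named because they passed 1.5-fold in culture 4. Among the flagged genes, Sspn, Lamb1, Nrxn2, Bgn, Gpr37l1, Atp1b2, Gfap and Mmp2 met that rule. The share flagged therefore cannot be set against the chance rate. One of the 9 endfoot genes was among them, Dtna, with 136.5 CPM in culture 4 against 176.6 to 180.4 in the others. Aqp4 was not, since its value in culture 3 lay between those of cultures 1 and 2 and that of culture 4. The dystrophin-associated membrane genes Sgcb (120.3 CPM against 147.1 to 152.4) and Sspn (38.6 against 65.5 to 69.9) were low in culture 4. So were 3 genes of dystroglycan ligands and partners, Lamb1 (36.7 against 58.4 to 60.95), Nrxn2 (99.1 against 148.4 to 158.0) and Bgn (36.9 against 129.4 to 135.9). Gpr37l1 (20.98 against 112.6 to 116.7), Atp1b2 (858.6 against 1437 to 1491), Gfap (779.7 against 1498 to 1555) and Mmp2 (17.5 against 43.98 to 46.3) were low there as well. Lamc1 was the 1 gene flagged for a high value, with 643.3 CPM against 517.4 to 530.1.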

How the results depend on the processing

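The order of the 9 genes rests on the length correction. Without a length term, 3 of the 8 neighbouring steps kept their direction in every library, against 7 with it, and 4 of them turned round: the mean log2 ratio was -0.049 for Mlc1 to Aqp4, -0.79 for Hepacam to Agrn, -0.19 for Dtna to Dmd and -1.41 for Clcn2 to Utrn (and 0.049 for Aqp4 to Mlc1). With the longest GENCODE transcript as the length, no step turned round, while the RPKM of 7 of the 9 genes moved by more than 1 SD. At a limit of 20% lower in place of 1.5-fold, 2 of the 9 genes were lower in culture 4 in place of 0. Leaving out 1 culture at a time kept 0 to 2 of the 5 genes nearest to Aqp4 and left 9 of 9 genes expressed. The BCV of all 9 genes moved by over 1.5 times only without culture 4. With cultures 1 to 3 summed as 1 sample, and with the Dmd length of the inner start, both chosen after seeing the data, none of the 10 pairs turned round. On that Dmd length the neighbouring step from Dtna to Dmd did turn round, at a mean of 42.7 RPKM for Dmd against 14.0 for Dtna. The counts of expressed genes in the 10 pathway lists stayed within 1.5 times in 30 of 30 recounts. Of the other lists, choroid plexus went from 1 to 2 and sex-linked genes from 0 to 4 without culture 4, and skeletal muscle from 0 to 2 at a minimum of 0.5 CPM and to 1 without culture 4. No paired analysis was possible because there is 1 group of cultures.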

Other observations

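Some lists of other cell types were split between their own genes. The oligodendrocyte precursor factors Olig1 and Olig2 stood at 1310 ± 71.0 and 240.9 ± 7.89 CPM, whereas Sox10, a factor of the same lineage, had 9 counts over all libraries (4 of 5 genes of that list expressed). Of the ependymal list 3 of 6 genes were expressed, Foxj1, a master gene of motile cilia, at 189.1 ± 9.34 CPM and Rarres2 at 17.3 ± 3.91, while Tmem212 had 1 count. Of 6 oligodendrocyte markers 3 were expressed, led by Cnp at 207.6 ± 15.1 CPM, and Mog had 1 count. Of 7 neuronal markers 4 were expressed, led in RPKM by Map2 (214.0 ± 9.16 CPM) and Tubb3 (16.8 ± 6.22 CPM). In CPM, Gad1 stood above Tubb3, at 18.9 ± 1.24. Of 6 choroid plexus markers Folr1 alone was expressed, at 1.16 ± 0.11 CPM. The Y-linked Eif2s3y, from the sex-linked list, of whose 5 genes none was expressed in every library, stood at 0.0708 CPM in culture 4 and 80.3 to 83.5 in the others.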
